A study of Caenorhabditis elegans with 2 samples.

Results

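The data described here are the DAF-12 ChIP-seq regions at lin-14 (WBGene00003003, T25C12.1), a gene on the plus strand of chromosome X at X:11465560-11485871 in the ce11 build (WBcel235). Regions were taken in where the summit lay from 10 kb upstream of the first annotated start of lin-14 to 5 kb past its end, a window of 35.31 kb. The window held 27 of the 30000 regions called on both replicates pooled. It held 29 of the 30000 regions of replicate 1 and 23 of the 30000 of replicate 2. The IDR list is the authors' list by the irreproducible discovery rate, a measure of how well ranks hold between replicates. Of its 150 peaks, 3 lay in the window. Its peaks are the 150 highest of the pooled list, and 67 of them were among the 150 highest regions of both replicates. A place in it is therefore not by itself a high rank in each replicate. The gene was chosen by the number and signal of its peaks in these same lists, so the positions, ranks and signals below are a description and carry no test.

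Both samples were whole L3 larvae of Caenorhabditis elegans, of mixed sex. They were of strain OP222, which carries the transgene wgIs222 for eGFP-tagged DAF-12 in an unc-119(ed3) III background. The labels give 1 group of 2 biological replicates, whose region lists had been made with a control alignment that was not used here. No other genotype, stage or treatment was analysed here. The protein measured came from a transgene in addition to any DAF-12 of the strain's own, and whole animals mix every tissue, so the cells in which a region was bound are unknown.

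DAF-12 is a nuclear hormone receptor whose ligands are the steroid dafachronic acids. It takes part in the choice between dauer arrest and reproductive growth and in the timing of larval cell fates, where it acts on microRNA genes of the let-7 family. lin-14 is an early gene of the same heterochronic pathway and encodes a nuclear protein that sets the fates of the first larval stage. The microRNA lin-4 base-pairs with the lin-14 3' UTR and represses it, so that LIN-14 protein declines after the first larval stage and later fates can follow.

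The gene has 2 annotated transcripts, which begin at different starts and end in the same coding exons. T25C12.1a.1 begins at the first start and has 12 exons. T25C12.1b.1 begins at the second start, X:11480361, which lies 14801 bp downstream inside intron 3 of the longer transcript. Intron 3 spans X:11469607-11480780 and is 11174 bp long. Introns are numbered by the longer transcript throughout.

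The 3 IDR peaks lay 1 just upstream of the first start, 1 inside intron 3 upstream of the second start, and 1 in intron 5 downstream of both starts. They are called the upstream, intron 3 and intron 5 sites. The 101 bases around each pooled summit are shown because they hold receptor hexamers at the intronic sites and none at the upstream one. Letters are those of the RefSeq sequence of WBcel235, plus strand, 5′ to 3′, and capitals mark a match on either strand to one of 9 motifs searched. Those searched were the receptor hexamers AGTGTG, then AGTGCA, then AGTGCG, then AGTACA, then AGTTCA, then AGGTCA and then AGGACA, the GA pentamer GAGAG and the GATA-type hexamer TTATCA. The windows are X:11465359-11465459 for the upstream site, X:11478896-11478996 for the intron 3 site and X:11482312-11482412 for the intron 5 site. The window of the strongest region left out of the IDR list, also in intron 3, is X:11473616-11473716.
upstream site: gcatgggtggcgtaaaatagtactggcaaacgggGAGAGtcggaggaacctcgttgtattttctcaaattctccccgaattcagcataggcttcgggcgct
intron 3 site: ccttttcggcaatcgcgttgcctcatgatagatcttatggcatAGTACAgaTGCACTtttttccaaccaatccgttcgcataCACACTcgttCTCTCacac
intron 5 site: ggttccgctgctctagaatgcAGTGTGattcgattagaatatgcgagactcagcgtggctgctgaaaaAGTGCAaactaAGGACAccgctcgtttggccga
strongest region left out: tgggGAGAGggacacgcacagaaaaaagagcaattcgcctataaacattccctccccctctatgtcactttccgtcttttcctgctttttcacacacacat

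The intron 3 site was the strongest DAF-12 region at lin-14. Its summit at X:11478946 lay 13386 bp after the first start and 1415 bp before the second. The pooled signal, the authors' value per region on a scale they do not state, was 64.84, which ranked 32 in the whole pooled list. Replicate 1 gave a signal of 34.98 (rank 33) and replicate 2 a signal of 29.94 (rank 42). The 2 replicate summits lay 1 bp apart, at X:11478973 and X:11478974. The rank was thus near the top of all 3 lists.

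The intron 5 site, with its summit at X:11482362, came second in the pooled list with a signal of 50.13 (rank 57). Replicate 1 gave 21.06 (rank 109) and replicate 2 gave 32.61 (rank 35), and both placed the summit at the same base, X:11482360. Intron 5 is 904 bp long and is shared by both transcripts, as intron 3 of the shorter one. The summit lay 2001 bp after the second start, so it is downstream of both starts. In replicate 2 this site was above the intron 3 site, and in replicate 1 and the pooled list below it, so the order of the intronic sites did not hold between replicates.

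The upstream site was the weakest of the 3 and the least sharply placed. Its pooled summit at X:11465409 lay 151 bp upstream of the first start, with a signal of 37.11 (rank 114). Replicate 2 placed it 27 bp away at X:11465382 with a signal of 22.02 (rank 105). In replicate 1 the overlapping region had its summit 150 bp away at X:11465559, 1 bp before the first start, with a signal of 14.16 (rank 586). It therefore stood among the 150 highest regions in replicate 2 and not in replicate 1. Replicate 1 summits more than 100 bp from the pooled summit occurred at 7 of the 150 IDR peaks, and replicate 2 summits at 1.

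The difference between replicates at the lin-14 sites was of the size seen at IDR peaks in general. The log2 ratio of replicate 1 to replicate 2 was −0.64 at the upstream site, 0.22 at the intron 3 site and −0.63 at the intron 5 site. Over all 150 IDR peaks the same ratio had a median of −0.02 and an SD of 0.68, so all 3 lin-14 values lay within 1 SD. With 1 value per replicate, no error can be given for a single site. The deposited −log10 q-values of the replicates could not order the intronic sites, because both had reached the ceiling of each replicate list (2.498 in replicate 1 and 1.835 in replicate 2). In the pooled list the −log10 q-values were 2.037 at the intron 3 site, 1.576 at the intron 5 site and 1.511 at the upstream site.

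**Figure D1:**
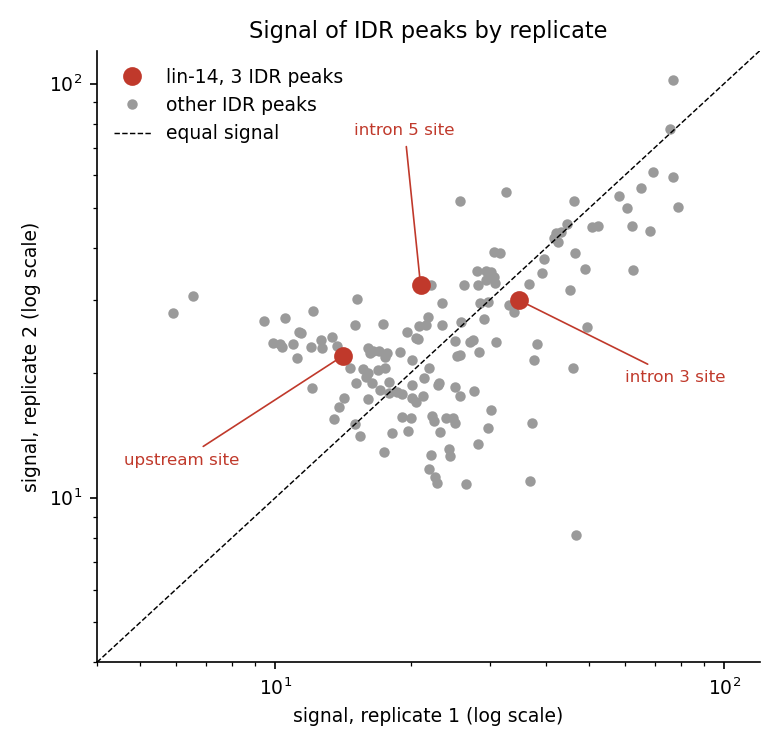
Signal of each IDR peak in replicate 1 (horizontal axis) and replicate 2 (vertical axis), both on log scales and in the authors' units; red points are the 3 lin-14 sites, grey points the other IDR peaks, and the dashed line marks equal signal. The intron 3 site lies close to the line at 34.98 and 29.94, and the upstream and intron 5 sites lie on the replicate 2 side of it.

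No other IDR peak was near the gene. The summits of the 3 sites lay 13537 bp (upstream to intron 3) and 3416 bp (intron 3 to intron 5) apart. The next IDR summit on X was 371188 bp to the left of the upstream site and 123585 bp to the right of the intron 5 site. Among the protein-coding neighbours, F48C5.2 ends 11229 bp before the first start, and spp-9 begins 1913 bp and spp-21 4259 bp after the end. With the same window drawn around each gene, spp-9 also counts 2 of these peaks, the intron 3 and intron 5 sites. By that rule spp-21 counts 1, the intron 5 site. The intronic peaks are therefore not counted for lin-14 alone. The nearest annotated 5' end to the upstream site belonged to the non-coding RNA T25C12.8, on the minus strand 104 bp away, against 151 bp for the lin-14 start. The order was the same at the replicate 2 summit (77 and 178 bp) and the opposite at the replicate 1 summit (254 and 1 bp). The lists carry no strand, so which of the divergent starts the upstream site belongs with cannot be told apart.

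The IDR list took in 3 of the 27 lin-14 regions. The pooled regions in the IDR list made up 0.500% of the list, and 0.680% of the regions on X. The lowest signal in the IDR list was 33.49 and its median 43.02. The upstream site, at 37.11, was the lin-14 region nearest to the threshold from inside. The nearest from outside was the region at X:11473666 in intron 3, with a signal of 29.2 (rank 237, in a list whose IDR peaks are the 150 highest). That region had 10.59 in replicate 1 (rank 2578) and 8.506 in replicate 2 (rank 11643). It was thus far lower in rank in each replicate than in the pooled list, and its pooled signal was above the sum of the replicates, 19.1. At the intron 3 site the pooled signal of 64.84 was close to the sum, 64.92.

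Below the IDR peaks, a chain of weaker regions ran through the gene. Their pooled −log10 q-values ran from 0.0202 (X:11476614) to 1.444 (X:11473666), and the next highest was 1.004 (X:11481845). The relaxed list keeps background regions, so the chain cannot be read as binding sites. Of the 27 pooled regions 20 lay in the gene body, spaced 252 to 2719 bp apart with a median of 969 bp. Introns held 18 of the 27 (66.67%) and make up 47.14% of the window. The 10 kb upstream held 6, the 3' UTR 2 and the downstream flank 1, and coding exons, 5.12% of the window, held 0. In replicate 1 introns held 17 of 29 regions and in replicate 2 they held 14 of 23. Coding exons held 1 region in replicate 1 and 2 in replicate 2.

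**Figure D2:**
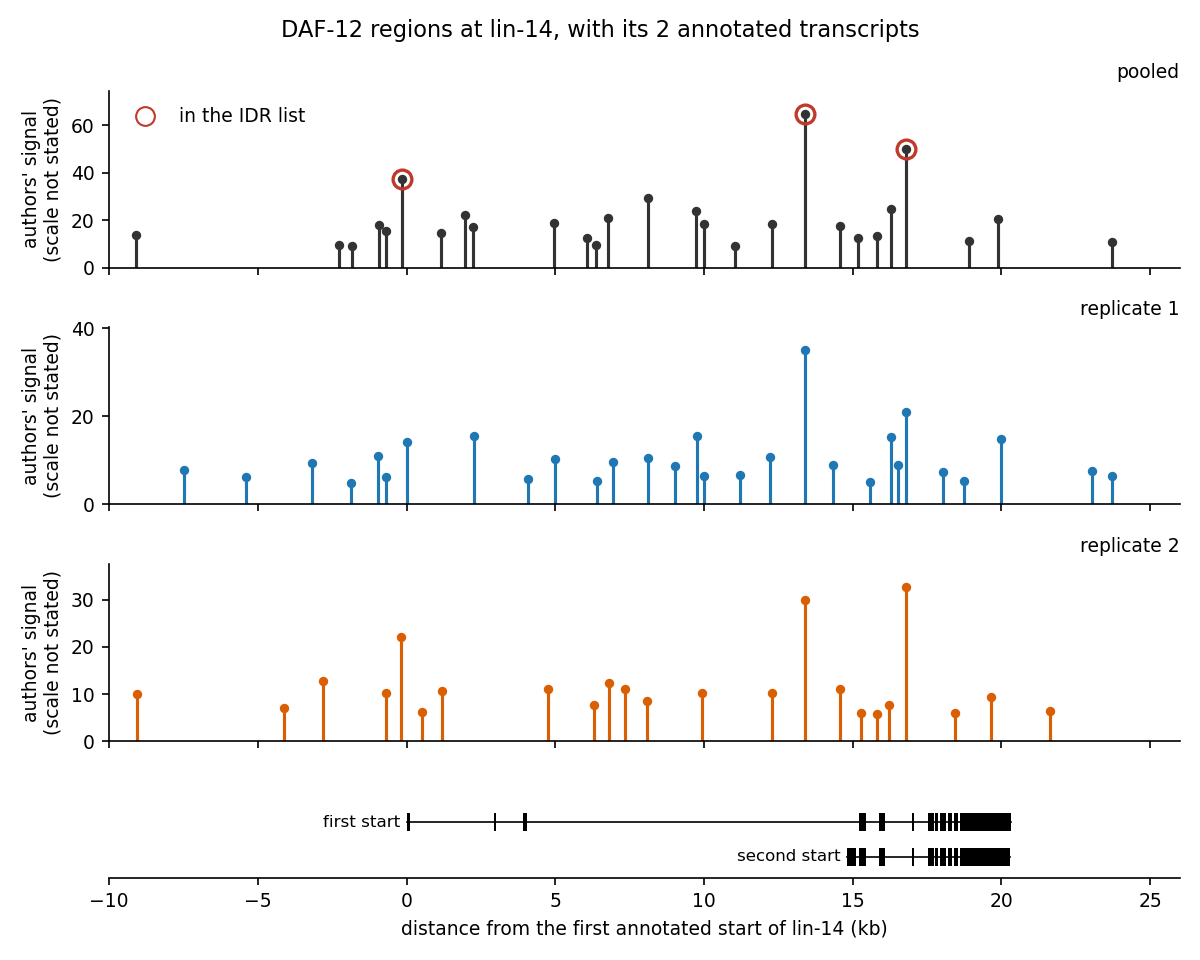
Signal of every region (vertical axis, authors' units) against the distance of its summit from the first annotated start (horizontal axis, kb), for the pooled list, replicate 1 and replicate 2, each on its own scale, with the exons of both transcripts as black boxes below. The circled pooled regions are the 3 IDR peaks at −0.151, 13.386 and 16.802 kb, and weaker regions run through the long intron 3 in all 3 panels.

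Intron 3, the longest, held 12 of the 27 pooled regions, with 12 in replicate 1 and 9 in replicate 2. This was 1.074 pooled regions per kb, close to the 1.065 of intron 1 (2818 bp), which held 3 pooled regions, with 1 in replicate 1 and 2 in replicate 2. Intron 5 held 2 pooled regions (2.212 per kb), with 3 in replicate 1 and 2 in replicate 2. Intron 4 held 1 in each list (2.288 per kb in the pooled list). In the pooled list, intron 3 was thus close to intron 1 per kb. It was below introns 4 (437 bp) and 5, whose values rest on 1 and 2 regions. The likeness to intron 1 did not hold in replicate 1, where intron 1 held 1 region and intron 3 held 12. Intron 2 and introns 6 to 11 held 0.

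Several of the regions outside the IDR list stood out in 1 replicate. In intron 5, 517 bp before the IDR summit, the region at X:11481845 had a pooled signal of 24.49 (rank 510), with 15.35 in replicate 1 (rank 367) and 7.784 in replicate 2 (rank 15290). In intron 3 the region at X:11475306 had 23.98 (rank 566), with 15.66 in replicate 1 (rank 333), and the nearest replicate 2 summit lay 198 bp away. In intron 1 replicate 1 had a region at X:11467828 with a signal of 15.5 (rank 344), and the nearest replicate 2 summit lay 1060 bp from the pooled summit there (X:11467806). These regions were high in replicate 1 and low or displaced in replicate 2.

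Most regions of the chain were not placed alike by both replicates. A summit of each replicate within 100 bp was found for 8 of the 27 lin-14 regions (29.63%), against 13.9% of all pooled regions and 14.93% of those on X. Another 7 had a replicate 1 summit only, 6 a replicate 2 summit only and 6 neither. Strong regions are matched more often in general, and 7 of the 27 lin-14 regions ranked within the top 1000. Among those 7, 4 were matched in both replicates (57.14%), against 696 of the top 1000 regions (69.6%). Taken from the replicate lists directly, 8 pairs of summits lay 0 to 90 bp apart, which is 27.59% of the replicate 1 regions and 34.78% of those of replicate 2. Replicate 1 was higher in 4 of the pairs and replicate 2 in 4.

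The median signal of the 27 pooled regions was 17.45 (range 9.144 to 64.84), against 11.98 over the whole pooled list and 12.24 on X. Of the 27, 21 were above the list median. The window held 0.765 pooled regions per kb, against 0.357 on X as a whole and 0.299 in the genome. The replicates gave 0.821 and 0.651 per kb at lin-14. Background regions were kept in the relaxed lists, so a region outside the IDR list is not by itself a binding site.

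lin-14 was 1 of 4 protein-coding genes with 3 or more IDR peaks, a count that is part of how it was chosen. With the same window drawn around each of 19973 protein-coding genes, 2.52% had at least 1 IDR summit (503 genes), 31 had 2 or more and 0.0200% had 3 or more (4 genes, lin-14 among them). The gene with more was dyf-4, with 4. In the gene body alone, 36 genes had an IDR summit and 6, with lin-14, had 2. By pooled regions per kb of window, 50 genes were as dense as lin-14 or denser, counting lin-14, and the gene median was 0.2919. Among the 2731 genes on X the median was 0.3519 and 15 were as dense. Among the 463 genes within 1.5 times the length of lin-14 the median was 0.2924 and 2 were as dense, lin-14 and pkg-2 (0.8051 per kb, 2 IDR peaks), which is named because its value was seen.

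**Figure D3:**
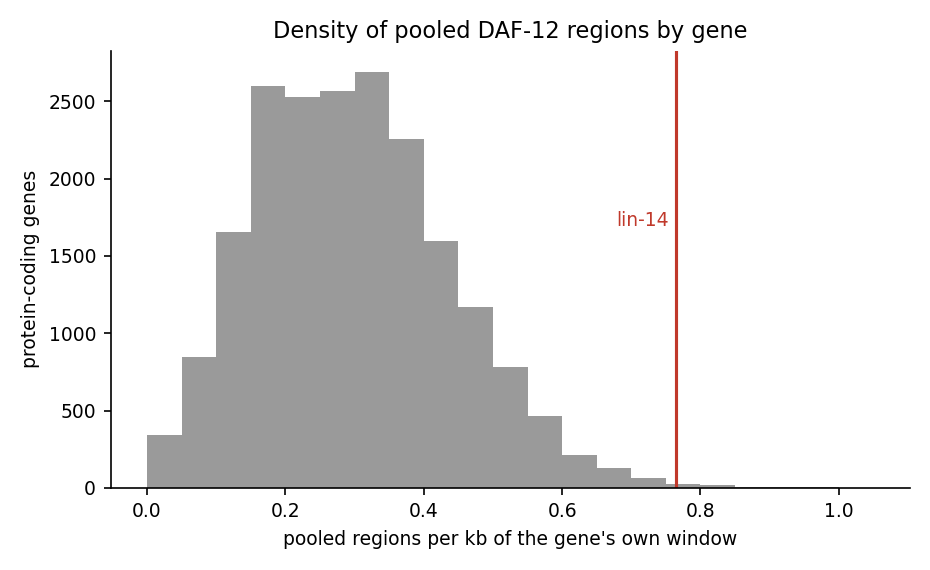
Number of protein-coding genes (vertical axis) by pooled DAF-12 regions per kb of the gene's own window (horizontal axis), with lin-14 marked by the red line. lin-14, at 0.765 per kb, lies in the upper tail, with 50 of 19973 genes at or above it.

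The genes most like lin-14, by 3 or more IDR summits and the nearest summed signal, were F45D3.1 (summed pooled signal 172.3, log2 distance 0.18 from lin-14's 152.1), F45D3.2 (126.8, 0.26) and dyf-4 (209.8, 0.46). Likeness was measured over the single pooled IDR list, and only these 3 genes met the rule. All 3 lie next to each other on chromosome V, and dyf-4 shares summits with both of the others. F45D3.1, F45D3.2 and dyf-4 had 0 IDR summits in the gene body, where lin-14 had 2. Their bodies are 1.296, 1.939 and 2.101 kb long, against 20.31 kb for lin-14, so these counts are not like for like.

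Within 50 bp of the pooled summit, the intronic sites held receptor hexamers and the upstream site held none. At the intron 3 site, AGTACA on the plus strand and AGTGCA on the minus strand stood with 2 bases between them, their centres 4.5 bases before and 3.5 bases after the pooled summit. AGTGTG on the minus strand followed 25 bases further on, with GAGAG beyond it. At the intron 5 site all matches stood on the plus strand: AGTGTG, followed after 41 bases by AGTGCA, which was followed after 5 bases by AGGACA. At the upstream site the only match was GAGAG, centred 14 bases before the summit, and the region of rank 237 likewise held only GAGAG. A receptor hexamer came into the upstream window when it was widened to 100 bp on either side (AGTTCA) or set on the replicate 1 summit (AGTGCG), and none when set on the replicate 2 summit.

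These matches were not equally common elsewhere. AGTGTG was in 12.67% of the IDR windows and 3.397% of all pooled windows of the same length, AGTGCA in 12.67% and 3.657%, AGTACA in 10.67% and 4.2%, and AGGACA in 4.0% and 2.403%. GAGAG was in 46.67% and 13.23%. Any of the 7 receptor hexamers was in 38.67% of IDR windows and 21.81% of pooled windows, so a single hexamer is frequent. AGTGTG and AGTGCA occurred together in both intronic lin-14 windows, against 5 of the 150 IDR windows (3.333%), these 2 included, and 44 of the 30000 pooled windows (0.147%). The plan covered single motifs and not this pair, so its shares are a description only. Over the 27 pooled lin-14 windows, 7 held a receptor hexamer (25.93%), 5 held GAGAG (18.52%) and 0 held AGGTCA or TTATCA. The median GC content of the 27 windows was 40.59%, against 47.52% over IDR windows and 33.66% over pooled windows. The lin-14 IDR windows were higher, with 51.49% at the upstream, 45.54% at the intron 3 and 50.5% at the intron 5 site. The part of GC content in these shares was not tested.

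**Figure D4:**
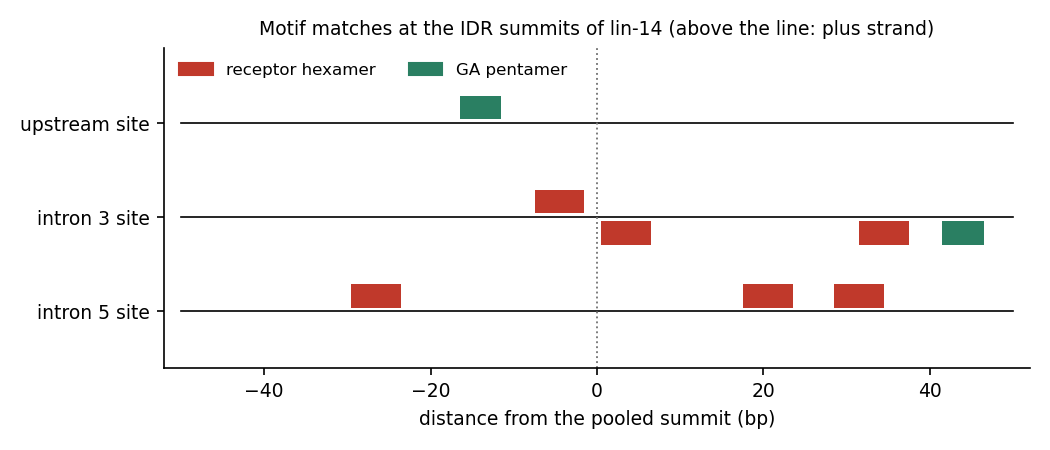
Position of each motif match (boxes) relative to the pooled summit (horizontal axis, bp) at the 3 lin-14 IDR sites; red boxes are receptor hexamers, green boxes the GA pentamer, and boxes above a line lie on the plus strand and below it on the minus strand. In these windows of 50 bp on either side, the intronic sites each hold 3 receptor hexamers and the upstream site holds none.

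The pair AGTGCA and AGGACA in tandem on the same strand, 5 bases apart, is an arrangement reported for DAF-12 binding. Counted in either order and on either strand, after the match at lin-14 had been seen, it was found in 1 of the 150 IDR windows (0.667%) and 1 of the 30000 pooled windows (0.00333%), the intron 5 site in both cases. In the whole genome it occurred at 19 places, 5 of them on X and 1 in the lin-14 window, at X:11482380-11482396. Of the 19 places, 5 lay within 200 bp of a pooled summit. Most places with the arrangement thus had no pooled summit within 200 bp, and nearly all listed regions lacked it. The share of the whole genome that lies so near a pooled summit is not given here, so the 5 are a count only.

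The 3' UTR, through which lin-4 acts, held no IDR peak. Its strongest pooled region, at X:11485455, had a signal of 20.35 (rank 1365), with a replicate 1 signal of 14.84 at X:11485551 (rank 445) and a replicate 2 signal of 9.481 at X:11485210 (rank 7960). The replicate summits were 341 bp apart. A search of the 1604 bp of the longer transcript's 3' UTR for the complement of lin-4 bases 2 to 8, the seed, found 3 matches, 356, 308 and 77 bp before the pooled summit. lin-4 (II:5902269-5902289) and the 3 matching sites are shown with the seed and its match in capitals, because lin-4 acts through this 3' UTR. The search took in seed matches alone, so it need not list every site that lin-4 uses. ChIP measures protein on DNA and says nothing of pairing at these sites, and distances between them and the region are positions only.
lin-4: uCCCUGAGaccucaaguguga
site at X:11485082-11485106: actctcttttaatccaaCTCAGGGa
site at X:11485130-11485154: tcaggaatttcttctacCTCAGGGa
site at X:11485361-11485385: tcaaaactcacaaccaaCTCAGGGa

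Among the other non-coding transcripts annotated in the window, 3 had a weaker region within 50 bp of their 5' end. At the remaining ones the nearest pooled summit was 240 bp (T25C12.9), 340 bp (T25C12.12), 484 bp (T25C12.6) and 518 bp (T25C12.5) away. No share for non-coding 5' ends elsewhere is given, and the window is denser in pooled regions than X (0.765 against 0.357 per kb). These distances are therefore positions only. The region at X:11467527 in intron 1 (signal 22.02, rank 886) was 3 bp from the 5' end of the non-coding RNA T25C12.7, on the minus strand. It had no replicate summit within 100 bp. The region at X:11464621, upstream of the gene (signal 18, rank 2708), was 42 bp from that of T25C12.10, with a replicate 1 summit 16 bp away and a replicate 2 summit 240 bp away. The region at X:11484486 in the 3' UTR (signal 11.0, rank 19200) was 7 bp from that of the small nucleolar RNA T25C12.11, with the nearest replicate summits 192 and 489 bp away. Overlapping annotations mean that a region there cannot be given to lin-14 alone.

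In the pooled IDR list, the other listed genes of the heterochronic pathway carried fewer peaks than lin-14. Because lin-14 was chosen by the number of its peaks, that order is part of the choice. The windows of the listed genes ran from 15.07 kb (mir-84) to 45.97 kb (daf-12), against 35.31 kb at lin-14. Of the 20 listed genes, 7 had an IDR summit in their own window drawn by the same rule, 3 had 2 and 0 had 3. Over protein-coding genes the share with an IDR summit was 2.52%. The 20 were listed with earlier results of these data known and include 6 microRNA genes, so the shares are not like for like. mir-48 and mir-241 lie side by side and count the same 2 peaks. Among the 150 highest regions of each replicate alone, daf-12 had more summits than lin-14: 2 at lin-14 and 3 at daf-12 in replicate 1, and 3 at lin-14 and 4 at daf-12 in replicate 2. Pooled regions per kb ran from 0.1987 to 0.8609 with a median of 0.4335, against 0.765 at lin-14, and 3 genes were denser: mir-48 (0.7947), mir-241 (0.8609) and daf-12 (0.8266). The strain carries an extra tagged copy of daf-12, whose part in the regions at that gene was not tested.

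Among the microRNAs that repress lin-14 or time the same fates, 3 of 6 had an IDR summit. The 2 peaks shared by mir-48 and mir-241 had signals of 135.7 and 71.7, both above the strongest lin-14 site, and mir-84 had 1 with 41.13. lin-4, the repressor of lin-14, had none: its best pooled region had a signal of 14.12 (rank 8411), with best ranks of 2235 in replicate 1 and 3369 in replicate 2. Among genes that act on or with lin-14, 3 of 8 had one: lin-42, a Period homologue (62.23), nhl-2, a cofactor of microRNA silencing (89.39), and daf-12 (60.42 and 36.13). Among timing genes that act later and a LIN-14 target, 1 of 6 had one, lin-41 (37.92), which encodes a TRIM-NHL protein and is a target of let-7. The intron 3 site of lin-14, at 64.84, thus lay between the peaks of nhl-2 and lin-42.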

How the data were processed

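Whole L3 larvae expressing eGFP-DAF-12 were assayed by ChIP-seq in 2 biological replicates of 1 group. Nothing in the labels says whether the replicates were separate cultures. Per the labels, fragments were of 150 to 350 bp. According to notes deposited with the lists, the authors built each one from ce11 alignments with a control alignment, and the IDR list from the pooled list and both replicate lists. The signal is one value per region deposited by the authors. The sources used here do not give its scale, the peak caller, the aligner or the IDR threshold. The deposited −log10 q-value reached a ceiling shared by 55 pooled regions, so regions were ranked by signal. The depth is unknown because the lists hold no read counts, and no counting error is given.

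From the 4 ce11 lists, summits were placed on the Ensembl release 115 annotation of WBcel235, let-7 on that of RefSeq. Replicate summits within 100 bp counted as a match, each used once, nearest pair first. Values per replicate at a pooled region are those of the nearest summit. Motifs were searched in 101 bases around each summit in the RefSeq genome. Python 3.11.15, pandas 2.3.3 and numpy 2.4.6 were used, and the counting and motif steps were checked on simulated data. lin-14, the gene lists, the motifs and the windows were chosen with earlier results of these data known, and no test was run. Genes named were lin-14, genes or transcripts nearest to its IDR summits, up to 5 genes with as many or more IDR summits and the nearest summed log2 signal, and members of the pathway list with an IDR summit. lin-4, pkg-2, the tandem hexamer pair and the other neighbouring genes were added with their values in view. Alternatives changed the window, the list length, the match distance, the transcripts, the scaling, the motif window and the replicate used. The ce10 lists were not used here.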

Additional observations from a re-analysis of the deposited data

How the results depend on the processing

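The count of 3 IDR peaks at lin-14 became 2 to 4 over the alternatives. IDR peaks in the gene body alone numbered 2. With the highest pooled regions in place of the IDR list, the count was 2 among the 75 highest and 4 among the 500 highest. Those 4 include the region at X:11473666 (rank 237), which is not an IDR peak. Taking the 150 highest regions of 1 replicate gave 3 without replicate 1 and 2 without replicate 2, where the upstream site dropped out. The number of pooled regions ran from 20 in the gene body to 29 without replicate 2. The count of regions found in both replicates was 5 pairs at 50 bp and 15 at any overlap of the regions, against 8 at 100 bp. Measured to the start of the longest transcript alone, the intron 3 site was 13386 bp and the intron 5 site 16802 bp away. With 1 replicate left out (chosen after seeing the data), the distances were 1387 to 1388 bp at the intron 3 site, 1999 bp at the intron 5 site and 1 to 178 bp at the upstream site. Kinds of motif at the upstream site numbered 2 within 100 bp, and 1 to 2 with 1 replicate left out. Within 25 bp the intron 3 site held 2 kinds (4 within 50 bp) and the intron 5 site 1 (3 within 50 bp). By IDR summits lin-14 ranked 2 among genes in the window, tied with 2 others, and 1 in the gene body alone, tied with 5. By the 150 highest regions of 1 replicate, it ranked 2 without replicate 1, tied with 1 other gene. Without replicate 2 it ranked 7, tied with 19. Without replicate 1, daf-12 had more summits, and without replicate 2, 6 genes did: unc-39, Y49A3A.4, daf-12, zfp-1, ztf-1 and F54F2.6. Scaling each replicate by its median over IDR peaks gave log2 ratios of −0.61, 0.25 and −0.60 at the upstream, intron 3 and intron 5 sites. The cause of these shifts was not tested. No paired analysis was possible because the series has 1 group. The unknown scale and depth of the signal, and 2 replicates, limit how finely the sites can be ordered.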
